A study of Mus musculus with 15 samples.

Results

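Mouse oocytes of the germinal vesicle (GV) stage from follicles cultured for 10 days with neurotrophin-4 (IVG-NT) were compared with GV oocytes grown in vivo (IVV) across all genes of the deposited count tables. The comparison takes 6 of the 15 oocyte libraries of the series, 3 per group, chosen by their titles, and asks how the transcriptome of oocytes cultured with NT-4 differs from that of oocytes left in the ovary. Both groups come from the outbred Kunming strain with no genetic change. The follicles of the IVG-NT group were preantral follicles dissected from ovaries of mice aged 12 to 14 days, and NT-4 was present at 100 ng/mL. The IVV oocytes were freed from cumulus complexes taken by puncture of antral follicles. The study's methods name ovaries of mice aged 2 and 6 weeks and do not say which gave the IVV oocytes, so age and culture cannot be told apart. Each library is a pool of 6 oocytes amplified by SMART-Seq2, a method that copies polyadenylated RNA, and the labels do not say how many animals gave a pool. The IVV libraries carry the numbers 2, 3 and 4 and the IVG-NT libraries the numbers 1, 2 and 3.

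A GV oocyte at the end of growth is transcriptionally quiet and lives on stored maternal mRNA, which it must translate, keep or degrade through meiosis and the first cleavages. It grows inside a follicle whose granulosa cells hand it pyruvate, amino acids and cholesterol through gap junctions, since mouse oocytes use little glucose and make little cholesterol themselves. NT-4 is a neurotrophin and binds the receptor tyrosine kinase TRKB, the product of Ntrk2, which acts through the RAS, PI3K and phospholipase C pathways.

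Levels are counts scaled to the library total (CPM) after TMM scaling, and values for 3 libraries are given in the order of their numbers. Total counts were 42.7, 19 and 43.5 M in IVV and 40.7, 33.9 and 38.5 M in IVG-NT. Of these, the rRNA gene CT010467.1 held 0.187%, 37.9% and 0.227% in IVV and 27.0%, 21.4% and 0.714% in IVG-NT. Libraries above a 5% share are called rRNA-rich (IVV replicate 3, IVG-NT replicates 1 and 2) and the others rRNA-poor (IVV replicates 2 and 4, IVG-NT replicate 3). The Spearman correlation of log2 CPM over the genes tested was 0.936 for both pairs of rRNA-poor libraries across groups, 0.855 and 0.857 for the rRNA-rich pairs across groups, and 0.772 and 0.765 between IVV replicate 3 and the other IVV libraries. Every comparison was therefore made in 2 ways, by group means and with the kind of library as a second term, and within each kind. Reads were not tagged by molecule, so errors below are the spread between libraries.

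Fewer genes were detected after culture. A count was seen in 22966, 22231 and 22814 genes in IVV and in 18089, 19124 and 21516 genes in IVG-NT. The groups did not overlap, although IVV replicate 3 was the shallowest library (two-sided exact permutation test, p = 0.1, the smallest that 3 against 3 allows). The same held for protein-coding genes, at 15694, 15255 and 15484 against 13427, 14009 and 14721, and for lincRNA genes, at 1493, 1342 and 1533 against 874, 915 and 1282 (exact permutation test, p = 0.1 for both). The share of mitochondrial transcripts was 0.540%, 0.180% and 0.550% in IVV and 0.244%, 0.229% and 0.362% in IVG-NT, and these ranges overlapped (exact permutation test, p = 0.4).

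The study's definition of a differentially expressed gene (DEG) was kept, which sets no adjustment for the number of genes. Genes with an unadjusted P under 0.05 by edgeR's quasi-likelihood test and more than 1 log2 unit of change were called, among 21009 genes fitted over all 15 libraries. By group means 691 genes were DEGs (3.29%), 131 higher (0.624%) and 560 lower (2.67%) in IVG-NT. Within library kind 906 genes were DEGs (4.31%), 202 higher (0.961%) and 704 lower (3.35%). After Benjamini-Hochberg adjustment 0 genes passed 0.05 in either fit by edgeR, where 691 and 934 genes had an unadjusted P under 0.05 (3.29% and 4.45% of all), and by DESeq2 (Wald test) 90 and 417 genes had an adjusted p under 0.05. The adjusted p was 1 for each gene given below in both edgeR fits, and the values that follow are log2 fold changes whose call as a DEG rests on the unadjusted P. Of the DEGs, 481 were called in both fits with the same sign, which is 69.6% of the first set and 53.1% of the second. In 258 of them the 3 libraries of one group lay above all 3 of the other, 40 higher and 218 lower in IVG-NT; of all genes tested, 11.6% did not overlap (4.57% above and 7.04% below IVV). Without IVG-NT replicate 1 or 2 the DEGs by group means fell to 235 and 255, and without IVG-NT replicate 3 there were 1122. Within library kind the count was 585 without IVV replicate 3 and 432 and 469 without IVG-NT replicate 1 and 2.

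The excess of lower genes lies at low levels. Of the 6061 genes with a mean under 1 CPM over the 6 libraries, 109 were higher (1.80%) and 472 lower (7.79%) within library kind, and of the 6614 genes from 1 to 10 CPM 34 were higher (0.514%) and 199 lower (3.01%). Of the 6310 genes from 10 to 100 CPM 26 were higher and 24 lower, and of the 2024 genes over 100 CPM 33 were higher (1.63%) and 9 lower (0.445%). Among the 704 lower DEGs, 452 had no count in any IVG-NT library, and among the 202 higher DEGs 67 had none in any IVV library. Of all 21009 genes tested, 1005 had no count in any IVG-NT library and 298 had none in any IVV library. Such genes passed the filter on low counts only through other libraries, so these counts follow in part from which genes were tested. By annotation the lower DEGs took 450 of 15510 protein-coding genes (2.90%), 76 of 1276 lincRNAs (5.96%) and 47 of 454 loci of the annotation class TEC (10.4%), which await experimental proof. Of 45 vomeronasal receptor genes 10 were lower, and of 110 olfactory receptor genes 12 were lower and 4 higher. Of all genes tested, 3.35% were lower and 0.961% higher. IVV replicate 3 stood apart in these families. Olfactory receptor genes detected numbered 109, 333 and 129 in IVV and 86, 112 and 105 in IVG-NT. Vomeronasal receptor genes detected numbered 47, 141 and 61 in IVV and 42, 46 and 46 in IVG-NT. The plot of fold change by level shows the lower DEGs crowded at low levels. For genes at 0 in one group the fitted fold is no measure of size.

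**Figure D1:**
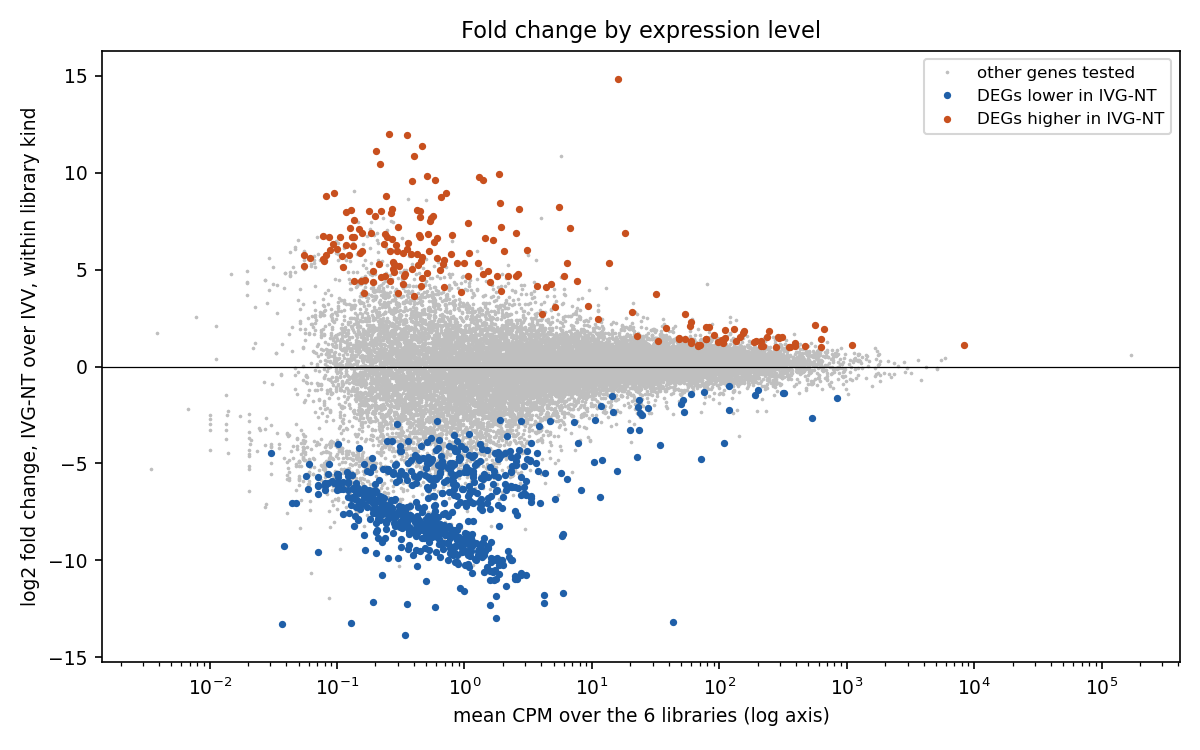
Log2 fold change of IVG-NT over IVV within library kind for all 21009 genes tested (vertical axis) against the mean CPM of the 6 libraries (horizontal axis, log scale), with the 202 higher DEGs in orange and the 704 lower DEGs in blue. Lower DEGs crowd under 1 CPM, where there are 472, and over 100 CPM the 33 higher DEGs outnumber the 9 lower ones.

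Among genes with a mean over 10 CPM, 92 of 8334 were DEGs within library kind, 59 higher and 33 lower, and in 36 of them the groups did not overlap (23 higher and 13 lower). Over all 8334 genes, 553 (6.64%) lay above IVV and 219 (2.63%) below without overlap, and the median log2 fold change was 0.20. The median exon length of the 59 higher genes was 5911 bases, of the 33 lower 2353 bases and of all 8334 genes 4474 bases. In 4 equal bins of exon length, the median log2 fold change by group means ran from -0.40 in the shortest to 0.54 in the longest bin, and within library kind from 0.03 to 0.24. Length thus moved with the fold change by group means more than within kinds. Its part in single genes was not tested.

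The 10 higher and 10 lower protein-coding genes of smallest P within kind were taken from those called in both fits, with the same sign in both kinds and without overlap. Wdr62, a protein of spindle poles and centrosomes, had the smallest P of these higher genes (ENSMUSG00000037020, chr7:30240138-30280419, minus strand, GRCm38). Its levels were 3.87, 17.4 and 7.85 CPM in IVV and 139, 168 and 26.0 CPM in IVG-NT, and every IVG-NT library lay above every IVV library. The log2 fold change was 2.29 ± 0.68 (SE, n = 3) within library kind and 3.52 ± 1.24 (SE, n = 3) by group means, and it remained a DEG under all 14 alternatives, the omission of each library included. In follicles cultured without NT-4 (IVG), which are compared with the same IVV libraries, Wdr62 was at 192, 142 and 23.5 CPM.

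Tpra1, a membrane protein with the fold of a G protein-coupled receptor, stood at 49.3, 47.7 and 35.5 CPM in IVV and 99.2, 115 and 125 CPM in IVG-NT (ENSMUSG00000002871, chr6:88902251-88912238, plus strand). The fold change within kind was 1.41 ± 0.51 (SE, n = 3), and the call was lost without IVV replicate 4, at 1.26. Ap3m1, the medium subunit of the AP-3 adaptor that sorts cargo to lysosomes, stood at 53.4, 58.7 and 60.5 CPM against 172, 208 and 86.2 CPM (ENSMUSG00000021824, chr14:21031442-21052508, minus strand). Its fold change was 1.21 ± 0.46 (SE, n = 3), which dropped below the thresholds without IVV replicate 3, at 0.99, and without IVG-NT replicate 2, at 1.02. The rule that chose these 3 genes required the same sign in both kinds of library, so that sign is no further result. Ap3m1 had the smallest fold change of them in the rRNA-poor libraries.

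The promoters of these genes are shown as the higher protein-coding genes among these with a mean over 10 CPM, and with them those of Idi1 and Msmo1, 2 of the cholesterol genes described later. The letters are the 250 bases before the transcription start, 5′ to 3′ on the gene's strand, from RefSeq on GRCm38.p6, with each CCAAT or its complement ATTGG, the letters bound by the factor NF-Y, in capitals.
Wdr62: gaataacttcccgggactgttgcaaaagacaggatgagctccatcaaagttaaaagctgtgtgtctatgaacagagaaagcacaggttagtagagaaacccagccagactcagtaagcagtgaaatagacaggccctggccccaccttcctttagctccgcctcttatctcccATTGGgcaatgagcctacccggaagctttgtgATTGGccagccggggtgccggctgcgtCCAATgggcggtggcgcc
Tpra1: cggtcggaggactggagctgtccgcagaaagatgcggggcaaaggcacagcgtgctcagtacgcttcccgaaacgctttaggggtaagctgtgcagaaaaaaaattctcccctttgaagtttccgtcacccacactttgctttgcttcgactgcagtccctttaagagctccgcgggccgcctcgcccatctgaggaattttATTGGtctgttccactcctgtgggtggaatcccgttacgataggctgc
Ap3m1: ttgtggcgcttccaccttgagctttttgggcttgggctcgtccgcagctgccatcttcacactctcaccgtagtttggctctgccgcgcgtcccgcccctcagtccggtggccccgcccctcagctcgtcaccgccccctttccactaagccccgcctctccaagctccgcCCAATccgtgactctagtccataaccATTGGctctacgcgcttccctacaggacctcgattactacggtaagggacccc
Idi1: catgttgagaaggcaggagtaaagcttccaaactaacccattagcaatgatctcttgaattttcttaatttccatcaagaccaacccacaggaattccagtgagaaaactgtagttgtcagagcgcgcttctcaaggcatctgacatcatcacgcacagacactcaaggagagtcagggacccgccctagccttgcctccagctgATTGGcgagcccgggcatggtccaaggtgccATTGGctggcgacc
Msmo1: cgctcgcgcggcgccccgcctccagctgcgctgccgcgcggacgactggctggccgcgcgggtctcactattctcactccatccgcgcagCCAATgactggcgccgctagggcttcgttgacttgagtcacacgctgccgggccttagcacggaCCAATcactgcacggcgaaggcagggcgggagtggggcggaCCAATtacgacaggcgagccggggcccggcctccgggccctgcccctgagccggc
The windows lie at chr7:30280422-30280671, chr6:88902001-88902250, chr14:21052443-21052692, chr13:8885356-8885605 and chr8:64733579-64733828, and hold 3, 1, 2, 2 and 3 matches. Of all 32851 promoter windows available 33.8% hold at least 1 match on either strand, and of the 13267 genes tested that have a promoter there 39.7% do. A match is a run of letters and not evidence of binding. The gene coordinates given here are from GENCODE release M21, and their ends can differ from the RefSeq starts. The Ap3m1 gene ends at 21052508, inside its window. The Msmo1 gene ends at 64733792, so most of its window, with all 3 matches, lies within the gene.

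Atp2b4, a calcium pump of the plasma membrane, was at 0.963, 2.61 and 0.691 CPM in IVV and 24.9, 21.7 and 4.93 CPM in IVG-NT, with a fold change of 3.11 ± 1.01 (SE, n = 3). It was a DEG without any single library and lost the call only with the replicate number as a block, and DESeq2 gave it an adjusted p of 0.00622. Others of the 10 higher genes were undetected in IVV. Csl, Kncn, Cyp4a14, Wfikkn1 and Xkr5 had 0 counts in all 3 IVV libraries and between 0.117 and 1.66 CPM in IVG-NT. Against a floor of 3 counts over the group they were at least 11-fold (Csl), 27.7-fold (Kncn), 38.4-fold (Cyp4a14, a fatty acid hydroxylase), 38.8-fold (Wfikkn1) and 11-fold (Xkr5) higher. The call of Wfikkn1 was lost without IVG-NT replicate 3 and that of Xkr5 without IVV replicate 2 or 4.

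Of the higher DEGs over 10 CPM without overlap, chosen after their values were seen, 4 are given here. Rbm3, a cold-inducible RNA-binding protein, was at 43.0, 40.6 and 41.9 CPM in IVV and 128, 87.6 and 86.0 CPM in IVG-NT, a fold change of 1.12 ± 0.48 (SE, n = 3). Me1, the malic enzyme that makes cytosolic NADPH, was at 221, 289.8 and 190.4 CPM against 637, 696 and 324 CPM, a log2 fold change of 1.04 ± 0.44 (SE, n = 3). Wdr48, which activates deubiquitinating enzymes, was at 29.5, 30.1 and 26.9 CPM against 88.2, 138 and 46.6 CPM, a log2 fold change of 1.32 ± 0.55 (SE, n = 3). Zfr, a zinc finger RNA-binding protein, was at 154, 111 and 152 CPM against 278, 435 and 282 CPM, a log2 fold change of 1.51 ± 0.61 (SE, n = 3). The spread within IVV was small for these genes, and the IVG-NT library closest to IVV was the rRNA-poor replicate 3 for Me1, Wdr48 and Rbm3. Each of the 4 fell short of the DEG thresholds when some single libraries were left out, 5 of the 6 for Me1 and Rbm3 and 4 of the 6 for Wdr48 and Zfr. Tuba3a and Rsph3b, drawn with them in the plot of well-expressed DEGs, have near-identical copies that may share reads, and their values are uncertain.

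**Figure D2:**
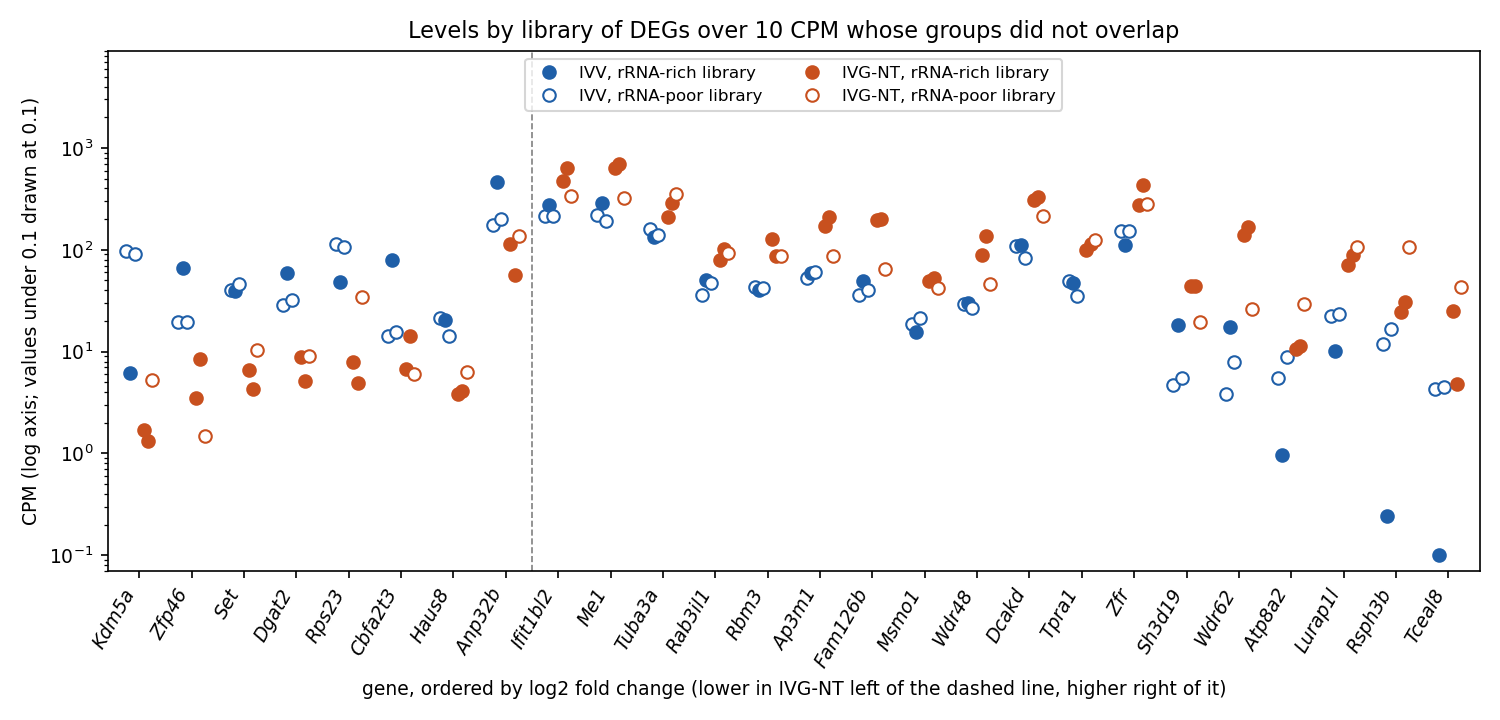
CPM of each library (log axis, values under 0.1 drawn at 0.1) for the 26 named protein-coding DEGs over 10 CPM whose groups did not overlap, IVV in blue and IVG-NT in orange, filled for rRNA-rich libraries. The 8 genes left of the dashed line are lower in IVG-NT, Dgat2 from 28.9, 59.1 and 32.0 CPM to 8.89, 5.14 and 9.12 CPM, and the 18 right of it are higher, Tpra1 with IVV libraries up to 49.3 CPM and IVG-NT libraries from 99.2 CPM.

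Dgat2, which makes triacylglycerol in the last step of fat storage, was the one of the 10 lower genes that was still detected after culture (ENSMUSG00000030747, chr7:99153658-99182719, minus strand). It stood at 28.9, 59.1 and 32.0 CPM in IVV and 8.89, 5.14 and 9.12 CPM in IVG-NT, and the groups were far apart. The fold change was -2.42 ± 0.69 (SE, n = 3) within library kind and -2.37 ± 0.83 (SE, n = 3) by group means, it remained a DEG under all 14 alternatives, and DESeq2 gave an adjusted p of 0.000169. In IVG it was at 22.6, 15.6 and 14.4 CPM, between both groups.

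The other 9 of these 10 lower genes were at 0 counts in all IVG-NT libraries. Capn2, a calcium-activated protease, was at 1.82, 5.76 and 2.05 CPM in IVV, at least 88.4-fold higher than in IVG-NT by the floor of 3 counts over the group. Padi3, which turns arginine into citrulline, was at 1.09, 4.73 and 0.122 CPM (at least 42.5-fold), Gng8, a G protein gamma subunit, at 1.68, 1.46 and 1.93 CPM (at least 62.2-fold), and Adamtsl2, a secreted matrix protein, at 0.775, 6.61 and 3.21 CPM (at least 94.9-fold). Spry2, an inhibitor of receptor tyrosine kinase signaling to RAS, was at 0.796, 3.27 and 0.528 CPM (at least 36.9-fold), and it was no longer a DEG without IVV replicate 3, nor was Gng8. Tmem136, Abca14, Ppm1m and Ptk7 ranged from 0.163 to 7.28 CPM in IVV. IVV replicate 3 held the highest level of 8 of these 9 genes, Gng8 being the other one.

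The summed markers of theca and stroma were also lower, and fewer such cells and less RNA per cell cannot be told apart. The summed level of 10 theca and stroma markers was 25.7, 23.2 and 25.2 CPM in IVV and 4.33, 8.12 and 6.24 CPM in IVG-NT, and that of 6 macrophage markers was 63.5, 16.9 and 46.3 CPM against 5.24, 9.71 and 34.9 CPM. The theca and stroma sums did not overlap, the macrophage sums did, and Cd68, a macrophage marker, was a DEG in the other direction within kind, at 1.70, 0 and 1.71 CPM against 0.736, 2.30 and 2.81 CPM, and not by group means. The 0 of IVV replicate 3 set it apart, and its call was lost without any 1 of 5 of the 6 libraries. Col1a2, a collagen chain, was at 5.34, 1.70 and 1.32 CPM in IVV and at 0 counts in IVG-NT (at least 109-fold), and lost its call without IVV replicate 3 or IVG-NT replicate 3. Cyp17a1, the androgen-making enzyme of theca cells, was at 0, 16.9 and 0.569 CPM in IVV. In IVG-NT it was at 0, 0 and 0.304 CPM. Replicate 3 alone was high in IVV, and Cyp17a1 made up 16.9 of the 23.2 CPM summed there. Without Cyp17a1 the theca and stroma sums of the groups would overlap. The granulosa and cumulus markers, 12 tested, summed to 184, 200.5 and 252 CPM against 148, 257 and 129.7 CPM and overlapped, with 0 DEGs. Of the 12, 3 lay above IVV without overlap (Has2, Cyp19a1 and Fshr) and 5 below (Hsd17b1, Fst, Amhr2, Inhbb and Foxl2), named after their values were seen. Of all genes tested, 4.57% lay above and 7.04% below without overlap. Fshr, the receptor for follicle-stimulating hormone, was at 6.97, 1.94 and 5.22 CPM against 10.5, 17 and 10.8 CPM, and Inhbb, an inhibin and activin subunit, at 19.9, 47.3 and 31.5 CPM against 5.86, 9.03 and 5.96 CPM. Hba-a1, a haemoglobin chain, was at 0, 0 and 13.1 CPM in IVG-NT and 0.377, 0 and 1.04 CPM in IVV, and Hbb-bs at 0, 0 and 10.8 CPM and 0, 0.546 and 0.569 CPM. The part of other cells in the low-level genes was not tested.

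Of 10 oocyte markers 0 were DEGs in either fit, and their median log2 fold change was -0.33 within kind against 0.01 for all genes tested. Gdf9, the growth factor that oocytes send to cumulus cells, was at 4575, 2602 and 4199 CPM in IVV and 2325, 1844 and 3759.6 CPM in IVG-NT. Dppa3, which guards maternal methylation, was at 8877, 414 and 8392 CPM against 444, 355 and 4638 CPM, high in the rRNA-poor libraries of both groups.

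Other genes over 10 CPM were lower after culture without overlap, again chosen after their values were seen unless a list named them. Kdm5a, which removes methyl groups from lysine 4 of histone H3, was at 98.3, 6.18 and 91.8 CPM in IVV and 1.71, 1.32 and 5.24 CPM in IVG-NT (ENSMUSG00000030180, chr6:120364124-120444574, plus strand). The fold change was -4.05 ± 1.42 (SE, n = 3), it remained a DEG under all 14 alternatives, and the rRNA-rich IVV library lay close to the highest IVG-NT library. Set, a histone chaperone and inhibitor of the phosphatase PP2A, was at 40.7, 39.5 and 46.5 CPM against 6.54, 4.30 and 10.5 CPM, a log2 fold change of -2.52 ± 1.14 (SE, n = 3), with IVV libraries of both kinds close to each other. Anp32b, a histone chaperone of another family, was at 174, 465 and 201 CPM against 115, 56.3 and 136 CPM, a log2 fold change of -1.45 ± 0.63 (SE, n = 3). Haus8, a subunit of augmin, which seeds spindle microtubules, was at 21.3, 20.7 and 14.4 CPM against 3.86, 4.13 and 6.34 CPM, a log2 fold change of -2.02 ± 0.75 (SE, n = 3). Set lost its call when any of the 6 libraries was left out, Anp32b without IVV replicate 3 or IVG-NT replicate 1 or 2, and Haus8 without IVV replicate 2 or IVG-NT replicate 1 or 2.

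Among lincRNAs, 4933427D06Rik was the well-expressed one, at 82.4, 301 and 61.0 CPM in IVV and 555, 530.4 and 322 CPM in IVG-NT, with a fold change of 1.54 ± 0.39 (SE, n = 3) and a call under all 14 alternatives. Gm20597 and Gm48453 had 0 counts in IVV. In IVG-NT Gm20597 was at 1.30, 1.18 and 1.85 CPM, at least 56.2-fold higher, and Gm48453 at 3.62, 4.33 and 3.20 CPM, at least 138-fold higher. The same RNAs were seen in IVG, Gm20597 at 0.674, 0.93 and 1.83 CPM and Gm48453 at 4.44, 6.94 and 2.39 CPM. Gm6410, AC126031.3 and Gm29805 were absent from IVG-NT and between 0.102 and 1.02 CPM in IVV.

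Within the rRNA-rich libraries, IVG-NT replicates 1 and 2 against IVV replicate 3, 1125 genes were DEGs (5.35%), 424 higher (2.02%) and 701 lower (3.34%). Within the rRNA-poor libraries, IVG-NT replicate 3 against IVV replicates 2 and 4, there were 204 (0.971%), 117 higher (0.557%) and 87 lower (0.414%). A single library stands on one side of each contrast, and its spread is taken from the other groups in the fit over 15 libraries. In that fit 0 genes had an adjusted p under 0.05 in either kind by edgeR, with 1145 and 215 unadjusted. With the day 6 libraries left out and the spread taken from the 9 libraries of IVV, IVG and IVG-NT, 4335 genes were DEGs in the rRNA-rich and 1300 in the rRNA-poor libraries, and 1373 and 34 passed the adjusted threshold. In the fit over 15 libraries the contrasts differed at an unadjusted P under 0.05 in 517 genes (2.46%) and at an adjusted p in 0. Genes called in both kinds in that fit numbered 24 with the same sign and 15 with opposite signs. By the unadjusted threshold the contrasts differed in more genes in the fit of 9 libraries, as given at the end.

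The genes called in both kinds with the same sign give the comparison with least mixing of kinds, and the well-expressed ones were chosen after their values were seen. Rbm38, an RNA-binding protein that acts on p53 transcripts, was at 51.6, 578 and 39.7 CPM in IVV and 1683, 1364 and 249 CPM in IVG-NT. The rRNA-poor IVG-NT library lay above both rRNA-poor IVV libraries, and both rRNA-rich IVG-NT libraries above the rRNA-rich IVV library. Ankrd52, a subunit of the protein phosphatase PP6, was at 2.76, 124 and 2.30 CPM against 403, 402 and 6.90 CPM. Slc6a9, the glycine transporter with which growing oocytes set their volume, was at 28.6, 313 and 21.3 CPM against 625, 704 and 67.3 CPM, with a fold change of 1.45 ± 0.40 (SE, n = 3) and a DEG call under all 14 alternatives. In each of these 3 genes the groups overlapped when the kinds were pooled. They did not overlap within a kind. Their choice as DEGs in both kinds all but set this, so it is no further result. Zfp57, which keeps imprints methylated, and Zbed3, of the subcortical maternal complex, were DEGs in both fits through the rRNA-rich libraries. Zfp57 was at 55.2, 181 and 29.6 CPM in IVV and 1521, 1541 and 80.2 CPM in IVG-NT, a log2 fold change of 2.12 ± 0.81 (SE, n = 3), and without IVV replicate 3, where the call was lost, at 1.69. Zbed3 was at 4046, 5218 and 4575 CPM against 14873, 15912 and 4877 CPM, so its rRNA-poor library lay among the IVV values, and without IVV replicate 3 it was at 0.99. Its call was also lost without IVG-NT replicate 1 or 2.

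**Figure D3:**
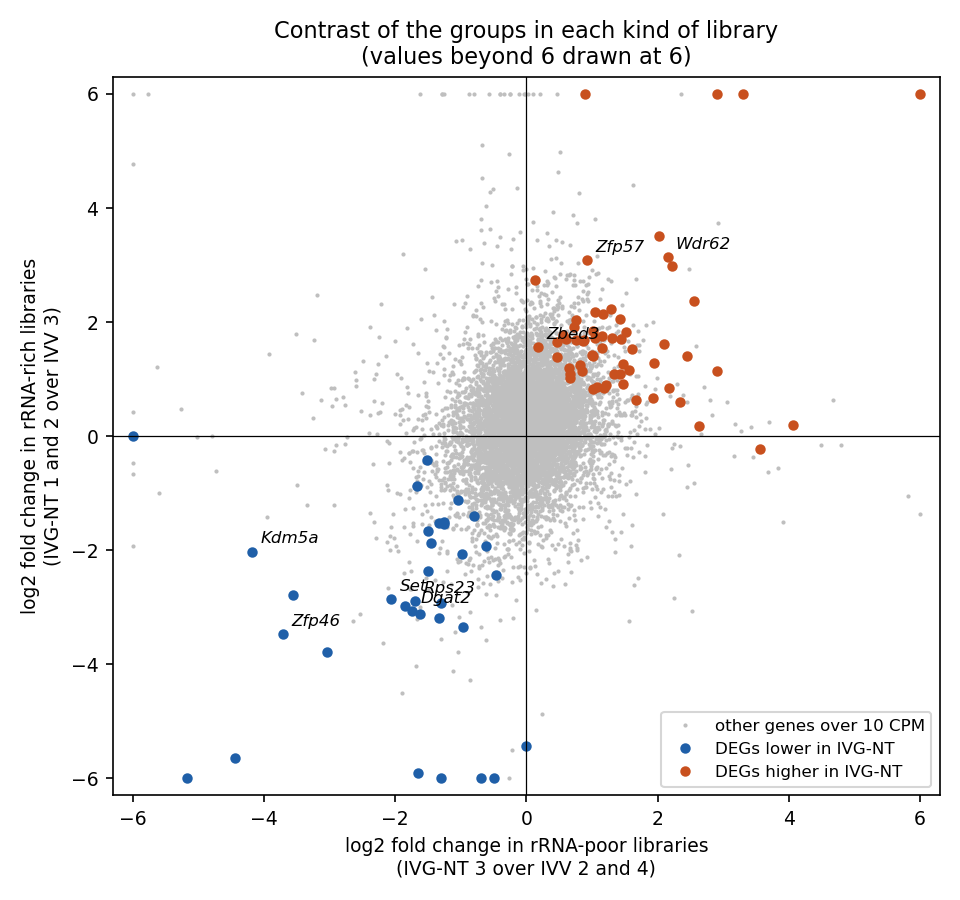
Log2 fold change of IVG-NT over IVV in the rRNA-rich libraries (vertical axis) against that in the rRNA-poor libraries (horizontal axis) for the 8334 genes over 10 CPM, of which 38 lie beyond 6 and are drawn at 6. Wdr62 and Zfp46 are far from 0 in both kinds, while Zfp57 and Zbed3 are farther from 0 in the rRNA-rich than in the rRNA-poor libraries.

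Genes of cholesterol synthesis and uptake had the highest median of the 45 lists, red blood cell markers aside. All 34 genes of the list were tested, and the median log2 fold change was 0.59 within kind and 0.60 by group means. Within kind 27 of the 34 were positive, against 50.3% of all genes tested. Of the 22 with a mean over 10 CPM 18 were positive, against 63.4% of all genes over 10 CPM. In 9 of the 34 IVG-NT lay above IVV without overlap, where 4.57% of all genes tested and 6.64% of those over 10 CPM did. In 2 it lay below (7.04% of all genes). By the DEG thresholds 1 was higher within kind (Msmo1) and 1 lower (Abca1), where 0.961% and 3.35% of all genes were. The median was positive under all 14 alternatives, within kind from 0.31 to 0.71 and by group means from 0.16 to 0.85. It was 0.69 in the rRNA-rich and 0.23 in the rRNA-poor libraries.

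By step of the pathway, Idi1, which isomerizes the isoprene unit, was at 17.6, 21.9 and 17.3 CPM in IVV and 99.1, 77.4 and 35.7 CPM in IVG-NT. Msmo1 and Nsdhl, which remove methyl groups from the sterol ring, were at 18.8, 15.5 and 21.5 CPM against 49.0, 53.1 and 41.7 CPM and at 27.6, 17 and 27.6 CPM against 48.9, 62.6 and 46.9 CPM. Msmo1 had a fold change of 1.31 ± 0.56 (SE, n = 3) and was not a DEG when any of the 6 libraries was left out. Sc5d, which sets a double bond late in the pathway, was at 14.3, 13.3 and 13.4 CPM against 35.9, 30.7 and 30.1 CPM. Srebf2, the transcription factor that drives the pathway, was at 32.3, 44.0 and 39.5 CPM against 135, 152 and 54.0 CPM, and its relative Srebf1 at 77.3, 81.5 and 59.8 CPM against 92.4, 96.6 and 162 CPM. Stard4, a carrier of free sterol, was at 49.5, 41.7 and 30.8 CPM against 69.3, 92.3 and 81.9 CPM. In each of these 7 genes every IVG-NT library lay above every IVV library, which by itself sets a positive fold change in both kinds of library. Abca1, which exports cholesterol, was at 1.07, 6.25 and 0.671 CPM in IVV and at 0 counts in IVG-NT (at least 58.4-fold). In IVG, Idi1 was at 57.6, 62.9 and 28.9 CPM and Msmo1 at 44.5, 43.2 and 32.9 CPM. Of the 23 genes of the list with a promoter in the table, 19 hold the CCAAT letters shown above, which is 82.6% against 39.7% of genes tested.

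**Figure D4:**
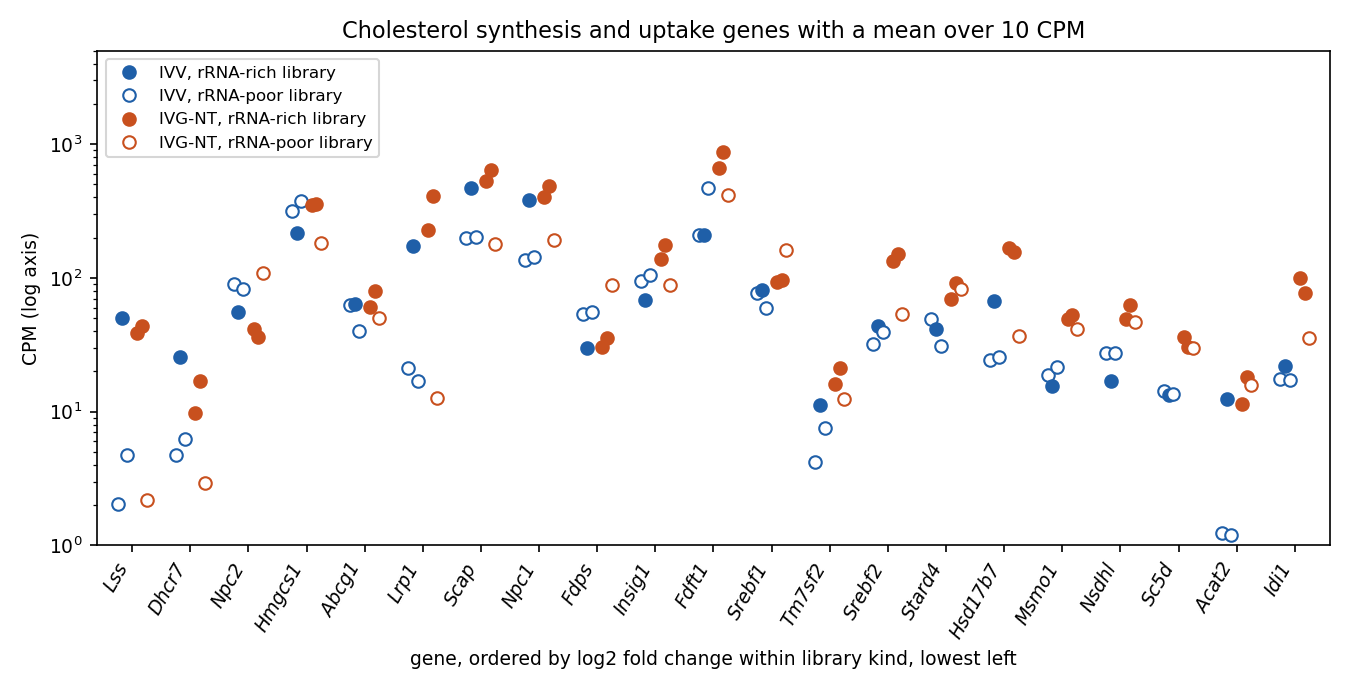
CPM by library (log axis) of 21 of the 22 cholesterol genes with a mean over 10 CPM, ordered by fold change within library kind, IVV in blue and IVG-NT in orange, filled for rRNA-rich libraries. In 8 of them, Srebf1 and Idi1 among them, all orange points lie above all blue ones, and 18 have a positive fold change.

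Most cytosolic ribosomal protein genes had negative fold changes. Of 83 tested only 7 had a positive fold change within kind, and the median was -0.65 within kind and -1.01 by group means. Within kind 4 were DEGs, all lower, where 3.35% of all genes were lower. Rps23 was at 113, 48.0 and 107 CPM in IVV and 7.98, 4.87 and 34.1 CPM in IVG-NT, a log2 fold change of -2.34 ± 0.80 (SE, n = 3), without overlap and called under all 14 alternatives. Rpl35a was at 300.5, 21.3 and 278 CPM against 3.44, 1.22 and 115 CPM, a log2 fold change of -2.26 ± 0.80 (SE, n = 3), and here the rRNA-rich IVV library lay within the IVG-NT range. The call was lost without IVV replicate 3 or IVG-NT replicate 2. Rps26 and Rps18 were the other DEGs. Processed pseudogenes of ribosomal protein genes can share reads with them, so single values are uncertain. The shortest bin of genes over 10 CPM had a median of 0.03 within kind and -0.40 by group means, and the part of length and of shared reads in the list was not tested. The list's median was negative under all 14 alternatives, within kind from -1.20 to -0.43 and by group means from -2.68 to -0.59. Nuclear subunits of oxidative phosphorylation, 83 tested, had a median of -0.36 within kind and 23 positive genes, and 0 were DEGs within kind. The median was 0.02 with the rRNA share as a continuous term. The 77 mitochondrial ribosomal proteins had a median of -0.12 and 0 DEGs.

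Of 40 genes of glycolysis and pyruvate use, 2 were lower within kind and 0 higher, where 3.35% of all genes were lower. Without overlap 7 of the 40 lay below IVV and 3 above, against 7.04% and 4.57% of all genes. Eno2, an enolase and 1 of the 2 DEGs, lost its call without any 1 of 5 of the 6 libraries. Slc2a3, a glucose transporter, was at 8.0, 0.606 and 0.955 CPM in IVV and at 0 counts in IVG-NT (at least 137-fold). IVV replicate 2 held most of its reads. Pdhx, a subunit of pyruvate dehydrogenase, was among the 3 above, at 145, 123 and 142 CPM against 198, 240.1 and 271 CPM. Ldha, lactate dehydrogenase A, was at 41.0, 58.8 and 40.8 CPM against 11.6, 17.4 and 17.7 CPM, and Hk2, a hexokinase, at 7.98, 20.8 and 8.50 CPM against 2.89, 5.21 and 2.31 CPM, neither a DEG. Of 44 amino acid transporters 2 were higher and 5 lower within kind, where 0.961% and 3.35% of all genes were. Their median was -0.81, negative under all 14 alternatives and nearest 0, at -0.32, without IVV replicate 3. By kind the median was -0.02 in the rRNA-rich and -0.86 in the rRNA-poor libraries. Slc38a3 and Slc1a3, carriers of glutamine and glutamate, were at 1.21, 1.03 and 1.28 CPM and 0.482, 0.788 and 0.0813 CPM in IVV and at 0 counts in IVG-NT, at least 43.1-fold and 12.5-fold. Their levels in IVV were under 2 CPM in every library, unlike Slc6a9 above. Of 45 genes of fatty acid uptake, storage and oxidation, Dgat2 was the 1 DEG, and the median was -0.02.

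The neurotrophin receptors themselves were scarce and varied most by 1 library. Ntrk2 was at 0.628, 22.5 and 1.36 CPM in IVV and 0.648, 2.54 and 2.74 CPM in IVG-NT, so IVV replicate 3 stood alone and the other 5 libraries were at 2.74 CPM or less. Ntrk3 was at 1.76, 27.4 and 2.46 CPM against 4.86, 6.4 and 3.58 CPM. Bdnf, the other ligand of TRKB, was at 0.23, 6.12 and 0 CPM in IVV and at 0 counts in IVG-NT (at least 35.0-fold), and Sorcs1, a sorting receptor, at 0.586, 10.2 and 0 CPM against 0 counts (at least 61.2-fold). Both were DEGs, lower, out of 10 ligands and receptors tested, where 3.35% of all genes were lower within kind. IVV replicate 3 held most of their reads, and IVV replicate 4 had 0 counts of both, as had IVG-NT. Without IVV replicate 3 the median of the list was 0.35 in place of -0.67. The call of Bdnf was lost without IVG-NT replicate 1 or 2, and that of Sorcs1 without either of them or IVV replicate 3. Ntf5, which encodes NT-4, was at 0.649, 0 and 2.17 CPM against 0.206, 0.271 and 1.33 CPM. Sorcs2 was at 18.6, 19.9 and 19.3 CPM against 44.3, 40.3 and 21.8 CPM and did not overlap, and was not a DEG. Of 31 signaling adaptors 0 were DEGs within kind. Shc1, an adaptor to RAS, was one by group means, at 4.13, 6.79 and 8.39 CPM against 44.3, 45.3 and 11.4 CPM, a log2 fold change of 2.39 ± 1.12 (SE, n = 3), and not within kind, a call lost without any 1 of 5 of the 6 libraries. Irs2 was lower by group means, a call lost without IVV replicate 2 or any 1 IVG-NT library.

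The oocyte genes that the study took to qRT-PCR overlapped between the groups, Ntrk2 above included. Rac1 was at 237, 223 and 358 CPM in IVV and 212, 91.0 and 374 CPM in IVG-NT, Arf6 at 45.8, 160.4 and 42.6 CPM against 98.0, 34.8 and 46.8 CPM, and Trp53 at 17.5, 41.2 and 18.3 CPM against 55.7, 41.7 and 34.6 CPM. Prkaca was at 9.91, 28.6 and 8.78 CPM against 9.86, 8.32 and 8.11 CPM and Orai1 at 77.1, 30.5 and 60.2 CPM against 23.0, 11.6 and 64.2 CPM. None of these 5 was a DEG in either fit. Cacna1s, a subunit of a voltage-gated calcium channel, was at 0, 4.91 and 0 CPM against 0, 0.0677 and 0 CPM and was a DEG within kind through IVV replicate 3 alone. Without it the call was lost. Of 34 calcium genes 1 was higher within kind, Atp2b4, and 3 lower, Cacna1c, Orai2 and Cacna1s. Of all genes tested, 0.961% were higher and 3.35% lower. Orai2 was at 0, 5.03 and 0.0813 CPM in IVV and at 0 counts in IVG-NT. Its call was lost without IVV replicate 3 or any 1 IVG-NT library. Cacna1c, a channel subunit of the same family, was at 0.356, 1.58 and 0.183 CPM in IVV and at 0 counts in IVG-NT (at least 16.2-fold).

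Meiosis and cell cycle lists had positive medians and few DEGs. Of all genes tested, 0.961% were higher and 3.35% lower within kind. Of 32 spindle and checkpoint genes 26 were positive within kind and 0 were DEGs. Their median was 0.24, close to the 0.20 of all genes over 10 CPM. Without overlap 6 of the 32 lay above IVV and 1 below, against 4.57% and 7.04% of all genes. Bub1, a checkpoint kinase, was at 43.5, 31.2 and 40.6 CPM in IVV and 71.5, 97.3 and 45.7 CPM in IVG-NT. Of 52 DNA damage genes 40 were positive, with a median of 0.32 and 0 DEGs within kind. Palb2, a partner of BRCA2, was a DEG by group means only, at 18.4, 22.7 and 28.2 CPM against 94.8, 121 and 31.4 CPM, a log2 fold change of 1.83 ± 0.82 (SE, n = 3), a call lost without any 1 of 5 of the 6 libraries. Of 34 genes of maturation promoting factor and its regulators 0 were DEGs within kind and 1 by group means, Mastl, a call lost without any 1 of 5 of the 6 libraries. Cdc27, a subunit of the anaphase-promoting complex, was at 110.5, 152 and 124 CPM against 297, 279.7 and 207 CPM, under the fold threshold. Of 29 cohesin and synaptonemal genes 1 was a DEG within kind, Hormad1, at 0.251, 0 and 0 CPM against 0.265, 0.135 and 0.912 CPM and lost without IVV replicate 4. Sycp3 was at 39.6, 34.9 and 40.2 CPM against 80.1, 51.0 and 112 CPM and Smc3 at 121, 127 and 117 CPM against 155, 151 and 186 CPM, both without overlap and neither a DEG. Of 41 genes of maternal mRNA deadenylation and decay 0 were DEGs. Without overlap 5 of the 41 lay above IVV and 4 below, against 4.57% and 7.04% of all genes. Cnot7, a deadenylase of the CCR4-NOT complex, was at 131, 93.4 and 109 CPM against 219, 234 and 207 CPM, and Edc3, an activator of decapping, at 1.86, 3.33 and 1.20 CPM against 0, 0.575 and 0.631 CPM.

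Stress lists held few DEGs. Of all genes tested, 0.961% were higher and 3.35% lower within kind. Of 41 heat shock and ER stress genes 2 were lower within kind, Xbp1 and Bag3. The call of Xbp1 was lost without IVV replicate 3 or IVG-NT replicate 1 or 2, and that of Bag3 without any 1 of the 6 libraries. Without overlap 6 of the 41 lay below IVV and 1 above, against 7.04% and 4.57% of all genes. Hspa5, the chaperone of the endoplasmic reticulum, was at 45.8, 84.9 and 80.2 CPM in IVV and 31.1, 32.7 and 28.0 CPM in IVG-NT, and Atf4, a transcription factor of the integrated stress response, at 44.2, 89.8 and 88.0 CPM against 37.2, 22.8 and 20 CPM, neither a DEG. Of 46 antioxidant and glutathione genes 1 was a DEG, Gstt1, lost without IVV replicate 3 or IVG-NT replicate 1 or 2. Without overlap 4 of the 46 lay above IVV and 4 below, against 4.57% and 7.04% of all genes. Glrx, glutaredoxin, was at 428, 375 and 388 CPM against 754, 819 and 619 CPM without overlap. Of 36 imprinted genes 10 were positive within kind, with a median of -0.38, and 1 was lower, Rasgrf1, a call lost without IVV replicate 2 or any 1 IVG-NT library. Ago4, a member of the Argonaute family, was at 1.57, 4.37 and 0.711 CPM in IVV and at 0 counts in IVG-NT, at least 56.8-fold lower, the 1 DEG of 31 small RNA genes.

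**Figure D5:**
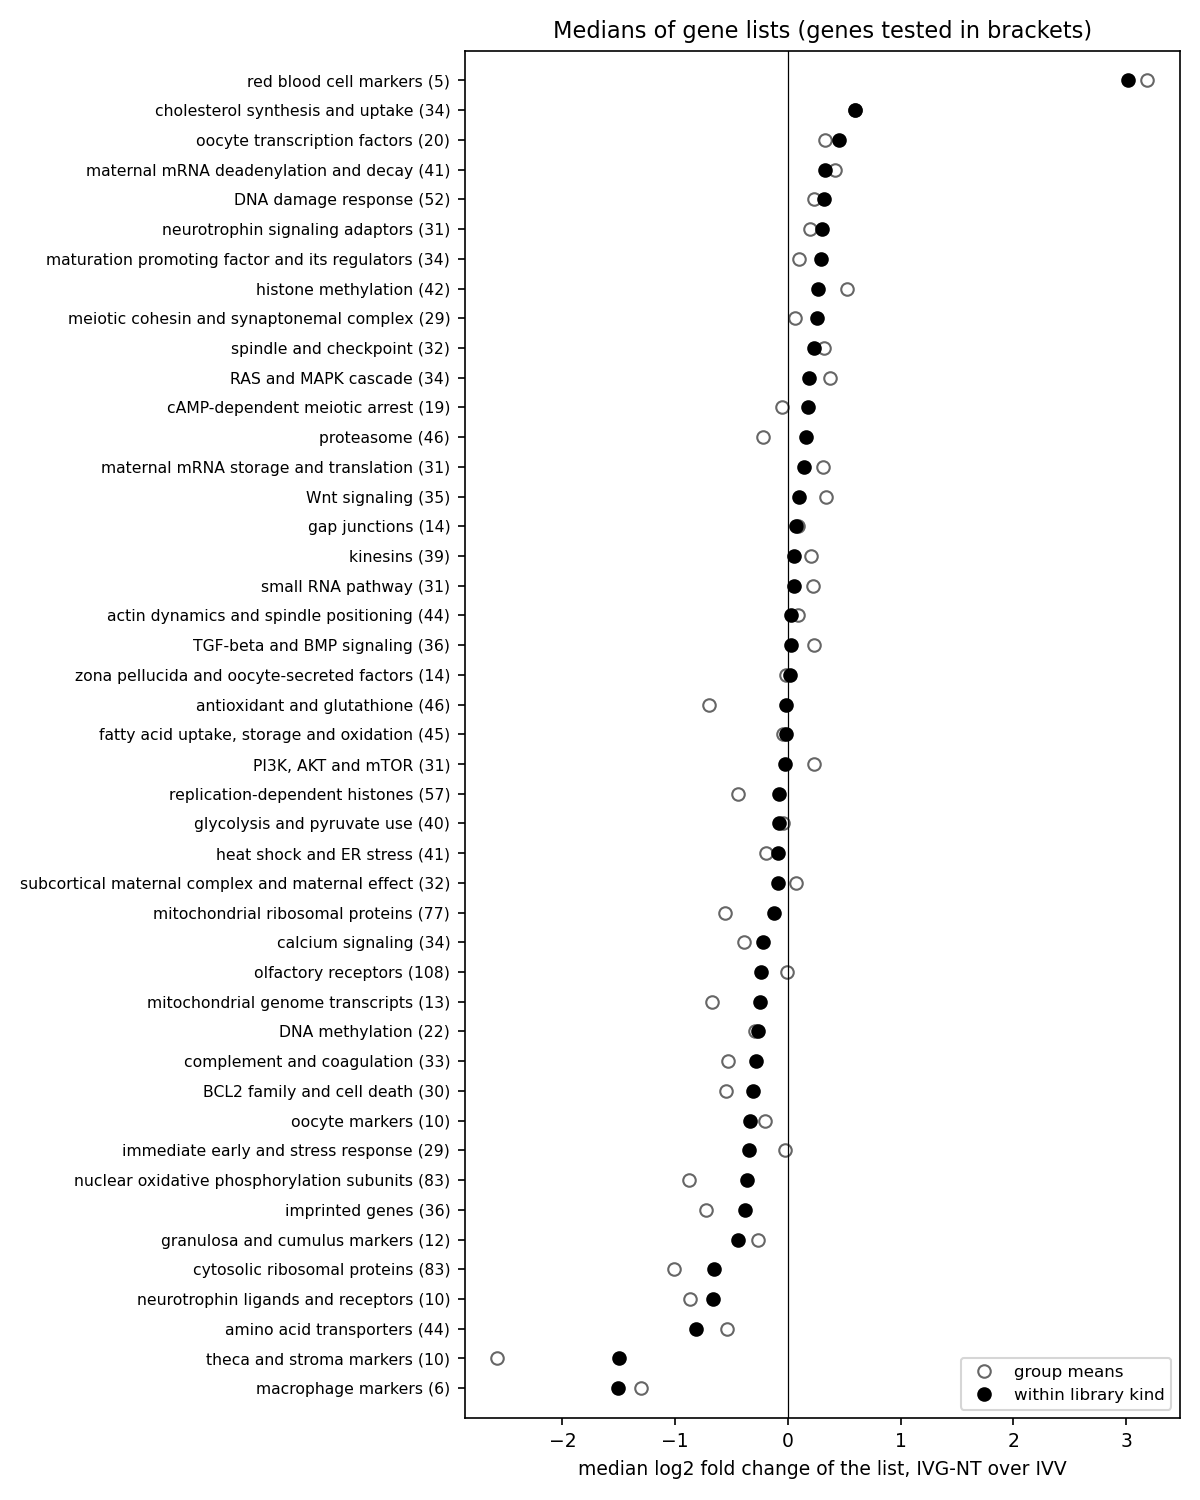
Median log2 fold change of IVG-NT over IVV for the 45 gene lists, by group means (open) and within library kind (filled), with the number of genes tested in brackets. Cholesterol genes (0.59) sit above and cytosolic ribosomal proteins (-0.65) below most lists in both fits, and the open and filled points part most for the theca and stroma markers (-2.58 and -1.49).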

How the data were processed

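RNA-seq libraries of 6 pooled oocytes were sequenced by the authors, and per the labels reads were mapped to mm10 with HISAT2; how reads were counted per gene is not given in the sources used here. The deposited values are raw counts per gene for 55401 Ensembl genes, of which 99.5% matched a symbol in GENCODE release M21. The deposited table of the whole series was not used, as its in vivo columns are numbered otherwise than the sample titles. All values here were computed from the per-sample counts with R 4.3.3 and edgeR 4.0.16: TMM scaling, filterByExpr with a minimum count of 10 (21009 genes kept), and the quasi-likelihood F test over all 15 libraries, with group as the term, with group and library kind, and with a mean for each group in each kind. Benjamini-Hochberg adjustment ran over all genes tested. Nothing in the labels says how many animals the pools share, so P measures the spread between these libraries. Levels are TMM-normalized CPM. For genes at 0 in a group, folds are against 3 counts over that group.

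The 45 gene lists, the members named and the rule for naming them were chosen with earlier results of these data known. The rule took protein-coding genes and lincRNAs that were DEGs in both fits, with the same sign in both kinds and without overlap, by P within kind (10 higher and 10 lower, and 3 and 3), up to 4 DEGs of each list, and the neurotrophin and qRT-PCR genes. DESeq2 1.42.0, other scalings and filters, fewer libraries, a replicate block and the omission of each library were run as alternatives. The scripts were tested on simulated data. Some members of the lists are not reported here. Promoter sequences are from RefSeq on GRCm38.p6.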

Additional observations from a re-analysis of the deposited data

How the results depend on the processing

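The counts of DEGs moved with the libraries more than with the scaling. By group means (691), without a filter on low counts there were 1580, and leaving out each library in turn gave 235 to 1122. Within library kind (906), there were 1651 without the filter, 1552 in a fit of 9 libraries, 1490 in a fit of the 6 libraries, and 432 to 1062 with a library left out. Adjusted calls numbered 90 and 417 by DESeq2's Wald test against 0 by edgeR. With 9 libraries the rRNA-rich contrast gave 4335 DEGs and the rRNA-poor contrast 1300. In that fit of 19396 genes the difference between the rRNA-rich and rRNA-poor contrasts had an unadjusted P under 0.05 in 3709 genes. DESeq2 size factors gave 682 and 904. The share of higher genes among the DEGs by group means was 19%, 44.6% with 6 libraries, 43.8% with 9 and 48.5% without IVV replicate 3, and 5.70% without IVV replicate 4. Within kind it was 22.3%, and 45.1% with the rRNA share as a covariate. Of the 97 DEGs named by the rule, 27 were DEGs under every alternative other than the block. By group means Myc (ENSMUSG00000022346) was at 0 without IVV replicate 2 and -5.94 at the other end of the leave-one-out range, and Hist2h3b (ENSMUSG00000074403), a histone gene with near-identical copies, ranged from -5.29 without IVG-NT replicate 1 to 14.80 without IVV replicate 4. The cause was not tested.

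The groups share the replicate numbers 2 and 3. Each of these numbers joins an rRNA-rich with an rRNA-poor library, so the correlations of their deviations (-0.56 and -0.71) say nothing on whether the numbers mark shared experiments, and the labels do not say so. The replicate block gave 556 DEGs by group means and 327 within library kind. Each contrast within a kind has 1 library on one side, which limits its precision, and totals of 19 to 43.5 M counts leave genes under 1 CPM with few reads.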
